A study of Rattus norvegicus with 12 samples.

Results

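The genes described here encode 7 enzymes that make, spend or recycle methyl groups and folate-bound carbon, namely Inmt, Ahcy, Mat2a, Shmt1, Mthfd1, Aldh1l1 and Tpmt. They are 7 of the 10411 genes that the annotation of an Affymetrix rat expression array names, and they were found as every probe set assigned to one of them alone, which gave 8 probe sets. The genes were picked with their diabetic against normal values in these arrays already known. That contrast is therefore given for them as a description, without a test. Total RNA of whole lung came from 7 Wistar rats made diabetic with streptozotocin, which kills pancreatic beta cells and so removes most insulin, and from 5 normal Wistar rats injected with buffer. All 12 animals were male, were injected at 8 weeks of age and were studied at 12 weeks, after an overnight fast, so that the diabetic animals had 4 weeks of diabetes. Each array held the RNA of 1 animal. Levels of signal in whole lung cannot separate fewer cells of a type from less RNA per cell.

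Methyl groups enter this network from methionine, which methionine adenosyltransferases such as Mat2a join to ATP to form S-adenosylmethionine, the methyl donor of nearly all methyltransferases. Inmt uses that donor to methylate tryptamine and other amines, and the enzyme is known for its high activity in mammalian lung. Tpmt uses it to methylate sulfur atoms of thiopurine drugs. What remains of the donor, S-adenosylhomocysteine, inhibits methyltransferases until Ahcy splits it into adenosine and homocysteine. Folate carries the carbon units that remethylate homocysteine and build purines and thymidylate. Shmt1 loads the carbon of serine onto folate in the cytosol, Mthfd1 interconverts the folate forms, and Aldh1l1 removes the unit by oxidizing formyltetrahydrofolate to carbon dioxide.

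Promoter windows are shown for Inmt, Shmt1 and Aldh1l1, the member genes with the clearest separation of the animals. RefSeq (assembly GRCr8) held a window for 6 of the 7 members, each covering 250 bases before and 50 bases after the start of the gene. Capitals mark the letters TATAAA (the TATA box), CACGTG (an E-box) and CCAAT, searched on both strands.
Inmt, chr4:85652706-85653005, minus strand: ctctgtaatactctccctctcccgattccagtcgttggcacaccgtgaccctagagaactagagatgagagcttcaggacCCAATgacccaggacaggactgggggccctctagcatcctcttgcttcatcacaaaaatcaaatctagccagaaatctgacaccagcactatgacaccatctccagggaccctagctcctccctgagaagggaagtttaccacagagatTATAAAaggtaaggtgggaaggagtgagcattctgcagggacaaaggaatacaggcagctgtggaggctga
Shmt1, chr10:45990292-45990591, minus strand: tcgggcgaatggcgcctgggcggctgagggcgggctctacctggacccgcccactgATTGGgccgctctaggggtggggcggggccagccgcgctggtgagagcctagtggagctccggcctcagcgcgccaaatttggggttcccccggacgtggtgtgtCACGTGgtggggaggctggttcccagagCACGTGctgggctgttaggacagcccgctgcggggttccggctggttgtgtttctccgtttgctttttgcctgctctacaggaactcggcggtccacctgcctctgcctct
Aldh1l1, chr4:124616970-124617269, plus strand: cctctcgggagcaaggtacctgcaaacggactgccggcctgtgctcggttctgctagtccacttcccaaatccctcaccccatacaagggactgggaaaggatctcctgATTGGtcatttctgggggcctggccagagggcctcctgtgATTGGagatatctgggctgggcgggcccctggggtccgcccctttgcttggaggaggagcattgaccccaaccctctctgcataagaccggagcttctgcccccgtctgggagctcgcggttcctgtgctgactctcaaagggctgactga

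The 3 windows differ in their letters. The Inmt window holds 1 TATAAA, whose first base lies 21 bases before the start, and 3 CpG dinucleotides at a GC content of 51%, and 22.3% of the 33469 windows in the table hold fewer CpG. The Shmt1 window holds 2 copies of CACGTG, 89 and 61 bases before the start, with 23 CpG and a GC content of 67.3%. The Aldh1l1 window has 2 CCAAT matches on the opposite strand, where they read ATTGG, 10 CpG and 61% GC. Among the other members, Mat2a had 34 CpG, Tpmt 24 and Ahcy 17. TATAAA occurs in 14.2% of all windows, CACGTG in 6.42% and CCAAT in 37.5%, and among the 6 member windows they occur in 2, 1 and 4. GGGCGG, the GC box, is in 33.1% of all windows and in 5 of the 6 member windows, with Inmt as the exception. A match describes letters and not a bound site.

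Of the member genes, Inmt had by far the widest difference between the groups. Its signal (probe set 1373975_at, gene at chr4:85648459-85652755 in GRCr8) had a minimum of 3090.8, a median of 5244.3 and a maximum of 10134.7 in the 7 diabetic lungs, and was 3044.8, 4425.5, 2234.6, 2972.5 and 1236 in normal lungs 1 to 5. The signal is the MAS 5.0 value of a probe set on a linear scale, and how arrays were scaled is not given in the sources used here. Diabetic animal 6 was highest and diabetic animal 5 lowest in its group, and 6 of the 7 diabetic lungs lay above every normal lung. The groups met only where diabetic animal 5 (3090.8) fell below normal animal 2 (4425.5). The mean was 5999 ± 2319.8 (SD, n = 7) in diabetic lung and 2783 ± 1172 (SD, n = 5) in normal lung, a ratio of 2.16. On the log2 scale the difference was 1.14 (SE 0.29), and 4 of the 9520 tested probe sets had a larger positive one. Inmt also varied widely inside each group. The highest animal exceeded the lowest 3.28-fold among diabetic and 3.58-fold among normal lungs, and the SD of log2 signal was 0.56 in diabetic and 0.68 in normal lung.

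**Figure D1:**
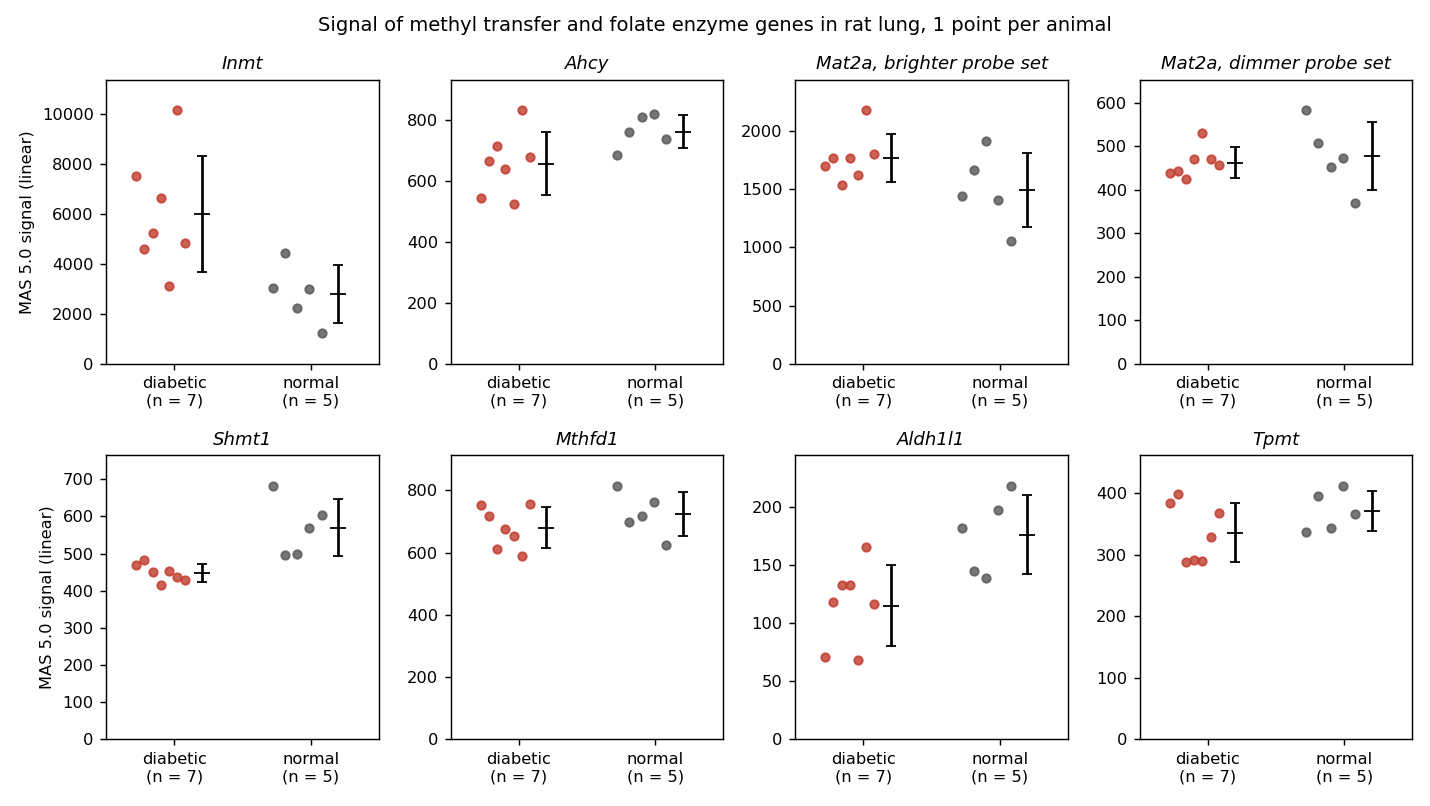
MAS 5.0 signal (linear, vertical axis from 0) of the 8 probe sets of the 7 member genes in each diabetic (red, n = 7) and normal (grey, n = 5) animal, with the group mean and SD in black. Diabetic lungs reach 10134.7 for Inmt against 4425.5 in normal lungs, and all 7 lie below the 5 normal lungs for Shmt1.

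Mat2a, which makes the methyl donor, and Ahcy, which splits what remains of it, had smaller differences than Inmt. These were of opposite sign at the brighter probe set of Mat2a only. The brighter probe set of Mat2a (1371350_at, chr4:106048043-106053612) had 1538.1, 1764.3 and 2178 as lowest, median and highest signal in diabetic lung, and 1437.8, 1665.5, 1910.4, 1408.3 and 1054.5 in normal lungs 1 to 5. Diabetic animal 6 alone was above all normal lungs, so the groups overlapped. The mean signal was 1767 ± 204 (SD, n = 7) in diabetic and 1495 ± 319 (SD, n = 5) in normal lung, a log2 difference of 0.26 (SE 0.12), which was 0.14 without normal animal 5. The other probe set of Mat2a (1387737_at) averaged 462 ± 34.9 in diabetic and 477 ± 78.0 in normal lung, a log2 difference of -0.03 (SE 0.10). For Ahcy (1367798_at, chr3:164029338-164044562) the diabetic lungs had 526.9, 667.8 and 833.9 as lowest, median and highest signal, and normal lungs 1 to 5 had 685.9, 761.5, 810.1, 820.2 and 739.5. Here 5 of 7 diabetic lungs lay below every normal lung while diabetic animal 6 lay above every one. The means were 658 ± 105 in diabetic and 763 ± 54.7 in normal lung, a log2 difference of -0.23 (SE 0.11).

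The mean signals of the 3 folate enzymes were lower in diabetic lung. Shmt1 (1373625_at, chr10:45968959-45990341) had a lowest, median and highest signal of 415, 450.1 and 483.7 in diabetic lung and was 682, 496.1, 498.6, 569.1 and 603.4 in normal lungs 1 to 5. Every diabetic lung was below every normal lung, with a gap between 483.7 and 496.1. The mean was 448 ± 23.6 (SD, n = 7) in diabetic and 569.8 ± 77.8 (SD, n = 5) in normal lung, a log2 difference of -0.34 (SE 0.09). Its spread was narrow in diabetic lung, with an SD of log2 signal of 0.08 against 0.19 in normal lung. Both Mat2a probe sets were also narrower in diabetic lung (0.16 against 0.32 for the brighter), whereas Ahcy (0.23 against 0.10), Aldh1l1 and Tpmt were wider. Shmt1 was the only 1 of the 8 member probe sets whose groups did not overlap. Over all 15866 probe sets other than controls, 1.38% did so, and over the 9520 tested 2.04% did, 1.11% with the diabetic lungs lower. Since the members were picked on this contrast, nothing is read from these shares. Inmt overlapped only through diabetic animal 5 and normal animal 2, and Aldh1l1 only through diabetic animal 6. Leaving out such an animal separates the groups by construction, so nothing is read from that either.

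Aldh1l1 (1368378_at, chr4:124617182-124663674), called Fthfd in older annotation, was the dimmest member. The authors had already listed Fthfd among the genes lower by at least 1.5-fold on these same arrays. The fold of the group means here was -1.53, smaller in size than the authors' value. Its signal had a minimum of 68.1, a median of 118.4 and a maximum of 165.5 in diabetic lung and was 182.6, 144.9, 139.2, 197.4 and 218.5 in normal lungs 1 to 5. All diabetic lungs but animal 6 were below every normal lung. The mean of 115 ± 35.0 (SD, n = 7) in diabetic lung was 65.2% of the 177 ± 34.0 (SD, n = 5) in normal lung, and the log2 difference was -0.66 (SE 0.23). This probe set belongs to the 40% with the lowest mean log2 signal, under 170, which were left out of the test without regard to group. None of the 7 diabetic lungs and 3 of the 5 normal lungs reached 170. With a pseudocount of 64 the log2 difference was -0.44, and leaving out single animals gave -0.76 to -0.54.

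Mthfd1 and Tpmt had the smallest differences among the single-probe-set members. Mthfd1 (1368181_at, chr6:100713510-100781013) had 590.4 to 755.6 with a mean of 679 ± 65.5 in diabetic lung, and 625.6 to 814.5 with a mean of 724 ± 71.1 in normal lung, a log2 difference of -0.09 (SE 0.09) that was -0.06 without diabetic animal 6, -0.05 without normal animal 1 and -0.14 without normal animal 5. Tpmt (1370821_at, chr17:17850308-17868976) had 287.6 to 398.5 with a mean of 335 ± 47.9 in diabetic lung, and 336.8 to 411.4 with a mean of 371 ± 32.4 in normal lung, a log2 difference of -0.15 (SE 0.11). For Tpmt 4 of 7 diabetic lungs were below all normal lungs, and for Mthfd1 2 of 7 were.

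Across the 8 probe sets 2 were higher and 6 lower in mean log2 signal in diabetic lung. Over the 7 genes the median log2 difference was -0.15, against -0.01 over all probe sets tested. A median of -0.01 means that slightly more of all tested probe sets were lower than higher. The 7 genes include Aldh1l1, which was under the filter. Since the members were picked on this contrast, nothing is read from their count or their median.

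**Figure D2:**
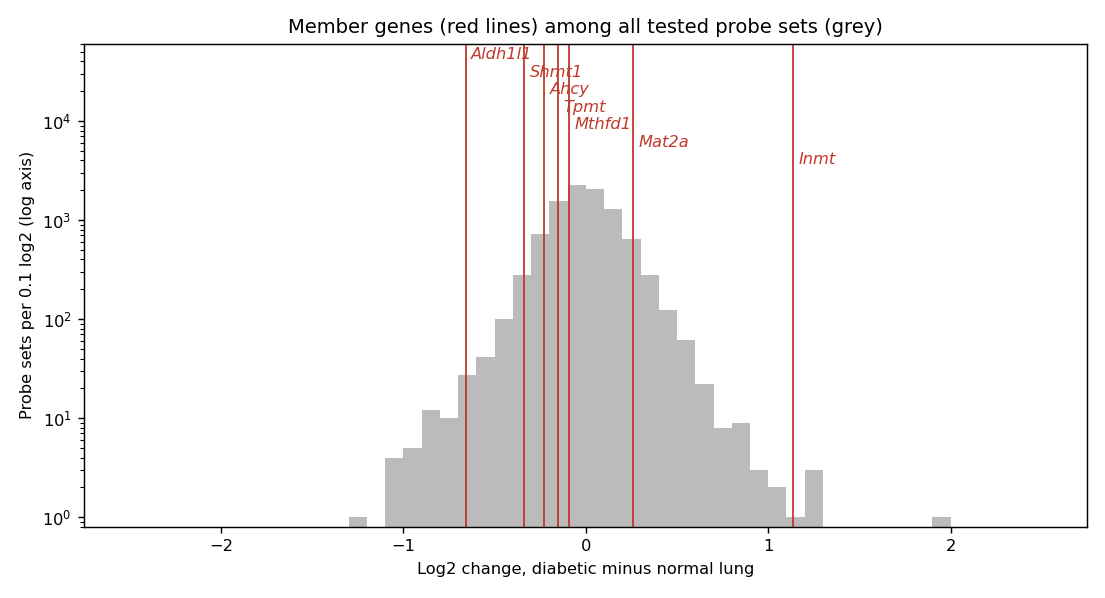
Log2 change in diabetic minus normal lung (horizontal axis) of the 9520 tested probe sets, counted in steps of 0.1 on a log axis (grey), with the 7 member genes at their brightest probe set as red lines (Aldh1l1 was under the filter on low signals). Inmt at 1.14 stands in the right tail, Aldh1l1 at -0.66 and Shmt1 at -0.34 lie left of most probe sets, and Mthfd1 at -0.09 and Tpmt at -0.15 lie among the bulk.

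Animals differed in their levels inside the groups, which the choice of members had not used. Diabetic animal 6 was above its group mean for Inmt (by 0.85 on the log2 scale), Aldh1l1 (0.59), Ahcy (0.36) and Mat2a (0.31), and it was below it for Mthfd1 (-0.20). Diabetic animal 5 was below its group mean for Inmt (-0.87), Aldh1l1 (-0.69), Ahcy (-0.31) and Mat2a (-0.12). Among normal lungs animal 5 had the lowest Inmt (-1.05) and Mat2a (-0.48) but the highest Aldh1l1 (0.33). Over the 12 animals, with group means removed, the closest pair by Pearson's r was Ahcy and Aldh1l1 (Pearson's r = 0.76, permutation test within groups, two-sided, p = 0.0153, adjusted p = 0.364, and Spearman's rho = 0.55, permutation p = 0.0966, adjusted p = 0.669). Without the 2 animals farthest from the median of Ahcy r was 0.49. Within the 7 diabetic animals alone r was 0.95 (exact permutation p = 0.00437, adjusted p = 0.122) and rho was 0.75 (exact permutation p = 0.0663, adjusted p = 0.619). For Inmt and Mat2a r was 0.63 (permutation p = 0.0519, adjusted p = 0.364), rho was 0.47 (permutation p = 0.151, adjusted p = 0.669), and r was 0.29 without the 2 farthest animals. By rho the strongest member pair was Mat2a and Shmt1, at -0.63 (permutation p = 0.0630, adjusted p = 0.669). Its r was -0.55 (permutation p = 0.185, adjusted p = 0.517), and -0.39 without the 2 farthest animals. In all, 28 relations were tested, 21 between members and 7 with the fibroblast markers described next, and 0 passed an adjusted p of 0.05.

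**Figure D3:**
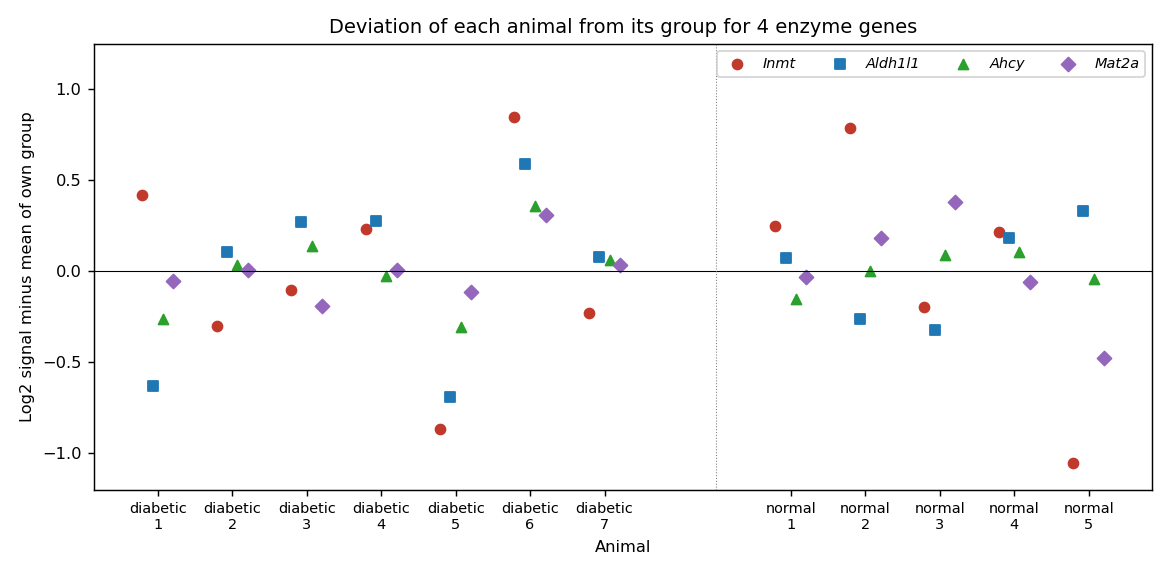
Log2 signal of Inmt, Aldh1l1, Ahcy and Mat2a (brightest probe set) in each diabetic and normal animal, as the deviation from the mean of its own group (vertical axis). Diabetic animal 6 is above 0 for all 4 genes and diabetic animal 5 below 0 for all 4, while normal animal 5 is lowest for Inmt (-1.05) and above 0 for Aldh1l1 (0.33).

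The arrays carried the markers of whole lung, and fibroblast markers differed between the groups. The surfactant gene Sftpc had signals of 21483.6 to 30073.2 in diabetic and 22064.5 to 29964.3 in normal lung, and the secretory cell gene Scgb1a1 had 18571 to 28182.5 in diabetic and 19592.7 to 23383.5 in normal lung. Albumin, as a liver marker, stayed under 170 on every array (61.3 to 88.8 in diabetic and 44 to 113.2 in normal lung). Of the 5 liver markers on the array, 1 was bright enough to be tested. This was Serpina1, with 568.6 to 749.6 in diabetic and 511.6 to 670 in normal lung. In mouse lung Inmt is found mainly in stromal cells. Over all 9520 tested probe sets, 8.68% were lower and 7.75% higher in the diabetic animals at unadjusted p under 0.05 in limma. Of 9 fibroblast markers, all on the array and tested, 6 had a lower and 1 a higher signal in the diabetic animals at unadjusted p under 0.05, and 0 passed an adjusted p of 0.05 in limma. Their summed signal was 12340.4 to 23637.1 in diabetic and 27071.4 to 28021.6 in normal lung, which did not overlap. Of the 14 cell type lists this was the only one without overlap. The sum adds linear signals, so the brightest genes weigh most in it. In normal lung these were Col3a1 (8249.2 to 9242.9) and Mfap4 (7894 to 9479.8), both lower in diabetic lung (1656.2 to 6370.7 and 1917 to 7862.7). Other lists also held genes at unadjusted p under 0.05 in limma. Of 4 type I cell markers tested, 2 were lower and 1 higher. Of 3 tested in each list, 1 macrophage marker was higher, and 1 lymphocyte and 1 red cell marker were lower. In these lists 0 passed an adjusted p of 0.05. The mean log2 level of the 9 fibroblast markers was -0.49 ± 0.36 (SD, n = 7) in diabetic lung relative to the normal mean, whose SD was 0.10 (n = 5) (exact permutation test, two-sided, p = 0.00884, adjusted p = 0.0177 over 4 array measures). No such p is given for the other cell type lists. The fibroblast list holds Col1a1 and Col3a1, which the authors had already reported as lower on these same arrays. Its p is therefore not independent of that result. Within this list the matrix genes Col1a1 (log2 difference -1.06), Col3a1 (-0.97), Col1a2 (-0.94), Fbln1 (-0.86), Mfap4 (-0.86) and Lum (-0.65) were lower. Pdgfra, a receptor that marks lung fibroblasts, had 2721.9 to 4439.3 in diabetic and 1930.1 to 2452.1 in normal lung, and Dcn (0.19) and the stromal transcription factor gene Tcf21 (0.15) had small positive differences. With group means removed r between the fibroblast markers and Inmt was -0.43 (permutation p = 0.159, adjusted p = 0.517), with rho at -0.30 (permutation p = 0.354, adjusted p = 0.855) and r at -0.45 without the 2 farthest animals. For Aldh1l1 it was -0.68 (permutation p = 0.0382, adjusted p = 0.364), with rho at -0.61 (permutation p = 0.0574, adjusted p = 0.669) and r at -0.62 without the 2 farthest. For Ahcy it was -0.69 (permutation p = 0.0509, adjusted p = 0.364), with rho at -0.48 (permutation p = 0.158, adjusted p = 0.669), but r was -0.14 without the 2 farthest. Mthfd1 had the opposite sign, with r at 0.47 (permutation p = 0.137, adjusted p = 0.517), rho at 0.22 (permutation p = 0.482, adjusted p = 0.876) and r at 0.06 without the 2 farthest. For Mat2a, Shmt1 and Tpmt r was -0.24, -0.21 and 0.06, with rho at 0.01, -0.31 and 0.06 (unadjusted permutation p of 0.269 or more for each r and rho). The part of fibroblast content in the differences of the members was not tested.

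**Figure D4:**
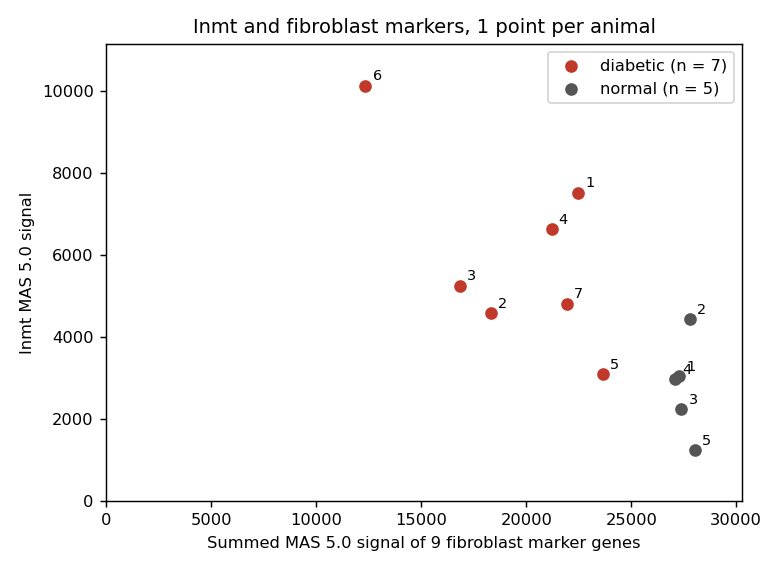
Inmt signal (vertical axis) against the summed MAS 5.0 signal of 9 fibroblast marker genes (horizontal axis) in each diabetic (red) and normal (grey) animal, numbered by animal. The normal lungs lie between 27071.4 and 28021.6 on the marker axis, and diabetic animal 6 has both the lowest marker sum (12340.4) and the highest Inmt signal (10134.7).

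One measure of RNA quality also differed between the groups. For GAPDH, signal at the 3' end of the transcript over signal at its 5' end, a ratio that climbs as RNA degrades, was 1.15 ± 0.0710 (SD, n = 7) in diabetic and 1.32 ± 0.0778 (SD, n = 5) in normal lung (exact permutation test, two-sided, p = 0.00505, adjusted p = 0.0177 over 4 array measures). That of beta-actin was 2.08 ± 0.372 in diabetic and 2.06 ± 0.437 in normal lung (exact permutation p = 0.920, adjusted p = 0.920), and the median signal per array was 252.7 to 265.6 in diabetic and 259.6 to 272 in normal lung (exact permutation p = 0.120, adjusted p = 0.160). Diabetic animal 6 had the highest GAPDH ratio of its group, 1.30, and the highest beta-actin ratio of all 12 arrays, 2.85. It also had the lowest mean correlation with its group, 0.948, against 0.963 to 0.971 for the other diabetic animals. Without diabetic animal 6 the log2 difference was 0.99 for Inmt, -0.29 for Ahcy, 0.21 for Mat2a, -0.33 for Shmt1 and -0.76 for Aldh1l1. With group means removed, r with the beta-actin ratio was 0.68 for Aldh1l1, 0.59 for Ahcy and -0.70 for Mthfd1. For the other members it was -0.12 to -0.07. With the GAPDH ratio r was 0.58 for Ahcy, 0.56 for Aldh1l1 and 0.50 for Inmt, and -0.24 to 0.15 for the other members. No p was computed for these r. The part of RNA quality in these differences was not tested.

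Relatives of the members on the same array gave values of their own. Shmt2, the mitochondrial counterpart of Shmt1, averaged 294 ± 54.1 in diabetic and 346 ± 24.4 in normal lung, a log2 difference of -0.26 (SE 0.13, limma, adjusted p = 0.341). Ahcyl1 and Ahcyl2, which resemble Ahcy in sequence and regulate ion transport and calcium release, had log2 differences of -0.08 (SE 0.07, limma, adjusted p = 0.635) and 0.17 (SE 0.09, limma, adjusted p = 0.385). Under the filter were Mat1a, the liver form of Mat2a (112.9 to 225.8 in diabetic and 113.8 to 168.5 in normal lung), the mitochondrial folate enzyme genes Mthfd2 (19.7 to 159.6 in diabetic and 76.2 to 189.9 in normal lung) and Mthfd1l (24.8 to 67.5 in diabetic and 31.1 to 106.1 in normal lung), and Pnmt, the adrenal methyltransferase that makes adrenaline and belongs to the family of Inmt (32.1 to 127.9 in diabetic and 61.7 to 94.9 in normal lung). Diabetic and normal lungs overlapped for each of these relatives.

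Beyond the members, 7 lists of methionine, folate, serine, methyltransferase and polyamine genes held 68 genes, of which 50 were on the array and 28 were tested. Of these 28, 0 passed an adjusted p of 0.05 in limma, where 0.168% of all 9520 tested probe sets passed, 0.0945% as higher and 0.0735% as lower. At an unadjusted p under 0.05, 2 were higher and 4 lower in the diabetic animals, where 7.75% of all tested probe sets were higher and 8.68% lower, 16.4% in all. Of the 28 genes 0 had groups without overlap, and the median log2 difference was -0.01. The smallest adjusted p was 0.134. In the methionine cycle list (4 tested) the lowest p belonged to Adk, the kinase that removes the adenosine made by Ahcy, with 2285 ± 282 in diabetic and 2921 ± 417 in normal lung (log2 difference -0.35, SE 0.11, limma, adjusted p = 0.134). Among polyamine genes (5 tested) Amd1, which decarboxylates S-adenosylmethionine, had 699 ± 101 in diabetic and 561 ± 38.6 in normal lung (0.31, SE 0.10, limma, adjusted p = 0.147), whereas the spermine synthase gene Sms had 224 ± 56.5 in diabetic and 315 ± 32.2 in normal lung (-0.52, SE 0.16, limma, adjusted p = 0.134). The log2 difference of the spermidine synthase gene Srm was -0.09.

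Serine and glycine supply (4 tested) included differences both ways. Gcsh, the lipoyl-carrying protein of the glycine cleavage system, averaged 172 ± 53.8 in diabetic and 247 ± 46.9 in normal lung (log2 difference -0.55, SE 0.20, limma, adjusted p = 0.189). Psat1, an aminotransferase of serine synthesis, averaged 438 ± 92.3 in diabetic and 347 ± 43.7 in normal lung (0.32, SE 0.14, limma, adjusted p = 0.259), and Dld, the dehydrogenase subunit shared with that system, had a log2 difference of 0.20. In the folate list (5 tested) the purine synthesis gene Gart and the polyglutamate synthase gene Fpgs, which keeps folate inside cells, had log2 differences of -0.18 and -0.24. The folate receptor genes Folr1 and Folr2, the 2 uptake genes tested, had -0.01 and -0.25.

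Other methyltransferase genes had smaller log2 differences than Inmt. Of the small-molecule enzymes (4 tested), Mettl7a, which methylates thiols, averaged 3899 ± 565 in diabetic and 3510.4 ± 499 in normal lung (log2 difference 0.15, SE 0.11, limma, adjusted p = 0.511). Gamt, which makes creatine from guanidinoacetate, had 0.06, and the arsenic methyltransferase gene As3mt had -0.04. Of the DNA and arginine methyltransferases (4 tested), Prmt5 averaged 309 ± 52.0 in diabetic and 378 ± 29.0 in normal lung (-0.31, SE 0.12, limma, adjusted p = 0.221), and Prmt2 and the maintenance DNA methyltransferase gene Dnmt1 had -0.02 each. No test set the difference of Inmt against that of another gene.

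**Figure D5:**
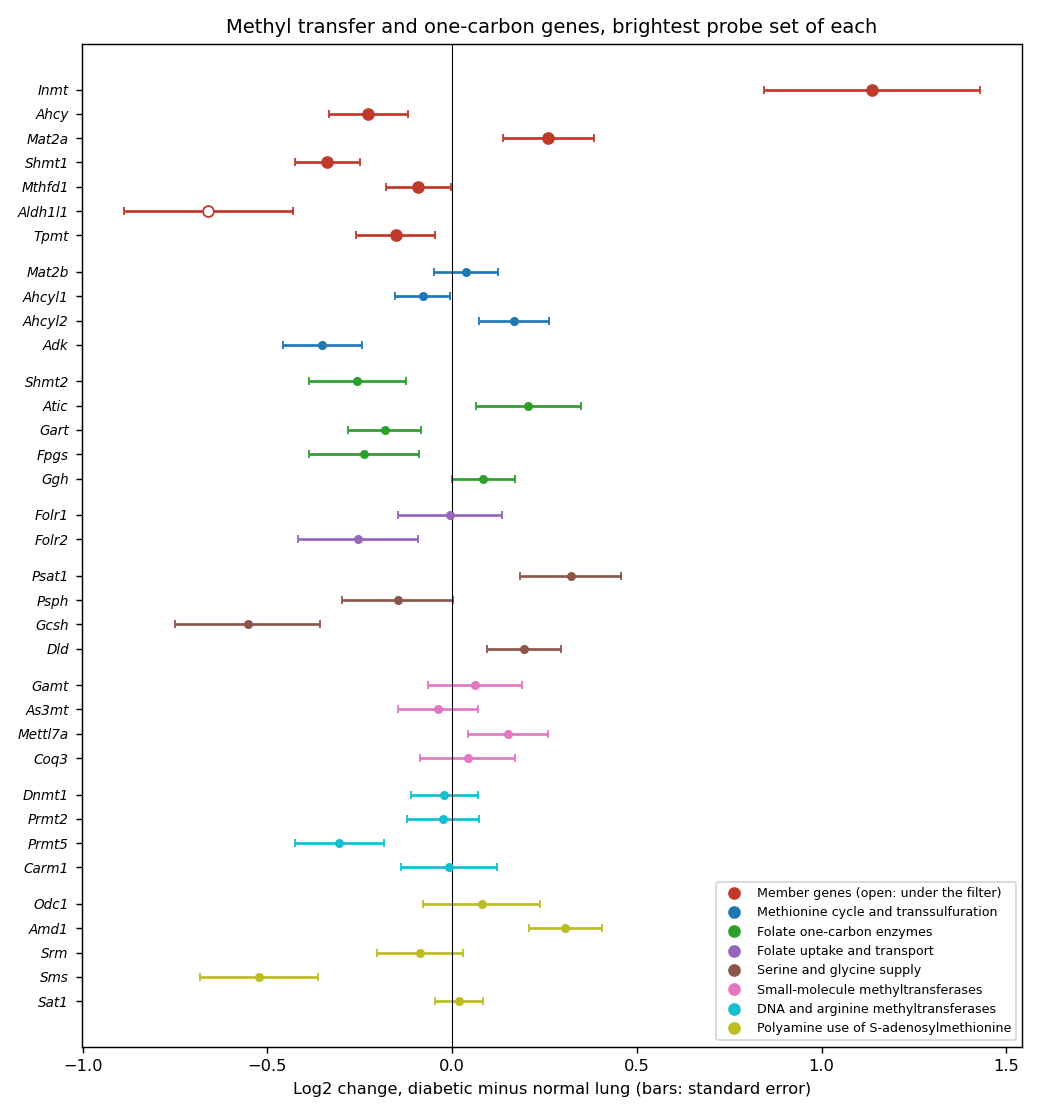
Log2 change in diabetic minus normal lung (horizontal axis, bars are standard errors from limma) of the 7 member genes (red, the open circle was under the filter) and the 28 tested genes of the 7 pathway lists, at the brightest probe set of each. Inmt at 1.14, picked with this difference known, lies beyond the 28 tested pathway genes, which run from -0.55 for Gcsh to 0.32 for Psat1. Pathway genes under the filter are not shown.

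By the measure of likeness, Pearson's r of log2 signal over the 12 animals with group means removed, the genes closest to Inmt among 7035 compared were Taf9, a subunit of general transcription complexes (r = 0.91), the kinase gene Pskh1 (0.90) and the transporter gene Slc35e3 (0.86). Between diabetic and normal lung their log2 differences were -0.11, -0.13 and 0.10. Closest to Aldh1l1 were Phf13, a chromatin reader (0.92), the sulfite oxidase gene Suox (0.91) and Ints5, an Integrator subunit (0.89), with log2 differences of 0.02, -0.05 and -0.03. The points share arrays and scaling, and these are the highest of all genes compared, so no p is given.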

How the data were processed

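Lungs of 12 rats were hybridized to Affymetrix rat expression arrays, 1 animal per array. The deposited values are MAS 5.0 signal intensity on a linear scale, 1 value per probe set, which the authors made with Affymetrix MAS software. How arrays were scaled is not given in the sources used here, and present and absent calls were not used here. The members and gene lists were chosen with earlier results of these data known. Of 15923 probe sets, 57 controls were left out. Probe sets were named through the platform annotation and RefSeq (12783 named 1 gene, 312 several and 2771 none). The 1 value below 0.1 was set to 0.1, signals were log2-transformed, and the dimmest 40% by mean over all arrays were dropped, which kept 9520. limma 3.58.1 (R 4.3.3) with an intensity trend compared diabetic with normal lung, with Benjamini-Hochberg adjustment over all 9520. The number of arrays limits the precision. The study used as many rats as arrays, so each array was taken as a separate animal. For a gene with several probe sets the brightest stood for it. Genes named are the members, their relatives on the array, the 3 of smallest p in each pathway list, the 3 most like Inmt or Aldh1l1, and all 9 fibroblast markers. The other cell type markers named (Sftpc, Scgb1a1, albumin and Serpina1) were picked after their values were seen. The scripts for the fit and the correlations were tested on simulated data. Alternatives were another share left out or none, no or a robust trend, array weights, quantile normalization, median centring, a pseudocount of 64, the mean over probe sets of a gene, a replicate block and each array left out. The authors' Bayesian analysis software was not used here.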

Additional observations from a re-analysis of the deposited data

Results flagged for a closer look

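Mat2a (1371350_at) in diabetic animal 6 had a signal of 2178, which lay apart from the other 6 diabetic lungs (1538.1 to 1802.2), with a gap to the next animal of 0.587 of the group's range. Of 16 groups of values checked, 1 had a gap beyond Dixon's critical value, which is set so that chance flags about 1 in 20.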

How the results depend on the processing

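No member changed the sign of its log2 difference under any alternative. Inmt ran from 0.87 to 1.33 with single animals left out and from 0.96 to 1.16 otherwise. Mat2a, at 0.26, was 0.15 with array weights, 0.11 as the mean over its probe sets and 0.14 to 0.36 with single animals left out. Mthfd1, at -0.09, was -0.04 with array weights and -0.14 to -0.05 with single animals left out. None of the pathway genes passed an adjusted p of 0.05 in limma under any alternative, and their smallest adjusted p ran from 0.0846 to 0.247. Their median log2 difference of -0.01 was 0.0822 with 60% of probe sets left out, which leaves 14 of the 28 genes, and -0.04 to 0.02 with single animals left out. The count of all probe sets past the threshold was 16, and it was 32 with 60% left out, 80 with array weights, 7 with no filter, 9 with no trend, 25 after quantile normalization and 2 to 27 with single animals left out (2 without normal animal 2 or 4, and 27 without diabetic animal 5 or 6). Centring arrays on the median gave 15 higher and 5 lower calls, against 9 and 7. With the replicate number as a block, on the arrays numbered 1 to 5, the count was 10. The same arrays without the block, an alternative chosen after seeing the data, gave 24 probe sets past the threshold. On these arrays, which leave out diabetic animal 6, the groups did not overlap for Shmt1 and Aldh1l1. Leaving out single animals gave 1 to 2 member probe sets without overlap. Fewer arrays make overlap rarer for any probe set. The share over all probe sets is not given for these smaller sets, so nothing is read from the counts. Same-numbered diabetic and normal arrays correlated at -0.12 to 0.04 in their deviations, so the numbers were not taken as a pairing.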
